A study of Rattus norvegicus with 6 samples.

Results

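The genes described here are the heat shock proteins and the chaperones of the endoplasmic reticulum (ER), with the transcription factors that control the latter, in cerebral arteries of Dahl rats. They were taken by name: every symbol of the array that names a heat shock protein, a J protein (Dnaja, Dnajb, Dnajc), a subunit of the cytosolic chaperonin (Cct) or a protein disulfide isomerase (Pdia), and further genes listed by symbol, among them Calr, Canx, Herpud1, Sdf2l1, Hyou1, Xbp1, Atf4 and Ddit3. The rule uses symbols and no measured difference. The array carries 74 such symbols, and 71 of them had a probe set annotated to that gene alone, of 10411 genes measured in this way. Hsp90aa1, Hspa1b and Hspa8 were carried only by probe sets annotated to several genes and have no value of their own, and Atf6 was not analysed here. By a list of the places where the proteins work, 36 members were assigned to the cytosol, 20 to the ER and 5 to mitochondria. A further 3 were listed as regulators of ER stress, and 7 that the list did not hold were left unassigned.

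Chaperones hold unfinished or damaged proteins and release them in cycles driven by ATP. Hsp70 proteins bind short greasy stretches of a chain, J proteins deliver the chains and trigger ATP hydrolysis by Hsp70, Hsp90 proteins finish clients such as kinases and receptors, and the chaperonin folds actin and tubulin inside a closed chamber. In the cytosol a shortage of chaperones frees heat shock factor 1, which induces their genes, whereas in the ER a shortage of the Hsp70 protein BiP (gene Hspa5) activates the unfolded protein response, in which ATF6, spliced XBP1 and ATF4 induce ER chaperones, degradation factors and CHOP (gene Ddit3). Vascular smooth muscle holds large amounts of small heat shock proteins, of which HspB1 and HspB6 are phosphorylated when the muscle contracts or relaxes.

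Dahl rats are bred for the response of their blood pressure to salt, and the labels do not name the line. The rats received chow with 0.4% NaCl until 7 weeks of age. The low salt group stayed on 0.4% NaCl for 12 weeks, and the high salt group ate 8% NaCl for a time given in one label as 11 weeks and in another as 12 weeks. No other treatment or allele is given for either group, and blood pressure was not analysed here. Intact primary branches of the basilar artery and circle of Willis (middle and posterior cerebral and posterior cerebellar arteries) were dissected, and RNA pooled from 3 rats was hybridised to each array, giving 3 arrays and 9 rats per diet. Storage was by snap freezing or in RNAlater, without a record of which pool had which. The study compared the diets, and each value below is a level on the log2 scale of RMA, the authors' array summary, so that a difference of 1 is a doubling. Levels of different genes rest on different probes, so a brighter probe set does not mean more RNA, and genes and marker lists are not ranked by level. Values are listed in the order of pools 1, 2 and 3 of a diet, and the order carries no rank.

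The tissue was read from lists of marker genes. The mean level of 8 smooth muscle markers ran from 11.1 to 12.0 over the 6 arrays, and that of 5 measured endothelial markers (of 7 listed) from 9.68 to 10.2. Lists of brain cells gave means of 8.67 to 10.6 for 10 astrocyte markers, 8.11 to 9.08 for 4 measured oligodendrocyte markers (of 5 listed), 8.27 to 9.43 for 6 macrophage and microglia markers and 7.04 to 7.32 for 7 measured neuronal markers (of 8 listed). These means do not give the shares of cell types. The array of low salt pool 1 stood apart. It had the narrowest spread of values (interquartile range 2.57, against 2.92 to 3.18 on the other arrays) and the lowest level of the 6 arrays for 3800 of 10411 genes (36.5%) and for 42 of the 71 members (59.2%). It also had the highest level for 3033 genes, the most of any array, and for 11 members. The main results are therefore given with and without that array. In pieces of tissue, fewer cells of a type and less RNA per cell cannot be told apart.

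Sequences that the stress factors are known to bind were looked for in the promoters of 59 members. These were matched by Entrez identifier to 60 RefSeq windows of the build GRCr8 (Hyou1 has a pair). Each window ran from 250 bases before to 50 bases after the annotated start of transcription. An ER stress element, the joint site of ATF6 and NF-Y, was searched for as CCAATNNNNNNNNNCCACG on both strands. It occurred in 22 of 33469 such windows of the rat genome (0.0657%). Among the members it was found in 5 of 19 ER promoters, those of Hspa5, Hsp90b1, Calr, Canx and Dnajc3, and in that of Xbp1, and in 0 of 29 cytosolic ones. A heat shock element of 3 alternating units (GAANNTTCNNGAA, which reads TTCNNGAANNTTC on the other strand) occurred in 267 windows (0.798%). It was found in 3 of 29 cytosolic promoters (Cct4, Dnaja1 and Hsph1), in 2 of 4 mitochondrial ones and in 0 of 19 ER ones.

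The promoters of Hspa5 and Hsp90b1, with their ER stress elements in capitals, and of Hsph1, Cct4 and Hspd1, with their heat shock elements in capitals, are shown because they represent both branches among genes whose levels are described next. Each runs 5′ to 3′ on the strand of its gene.
Hspa5: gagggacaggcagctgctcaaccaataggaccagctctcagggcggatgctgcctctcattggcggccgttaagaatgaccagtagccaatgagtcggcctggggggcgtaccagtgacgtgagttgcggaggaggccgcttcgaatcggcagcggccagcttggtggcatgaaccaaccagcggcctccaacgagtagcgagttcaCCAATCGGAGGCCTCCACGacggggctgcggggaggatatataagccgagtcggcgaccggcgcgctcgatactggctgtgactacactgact
Hsp90b1: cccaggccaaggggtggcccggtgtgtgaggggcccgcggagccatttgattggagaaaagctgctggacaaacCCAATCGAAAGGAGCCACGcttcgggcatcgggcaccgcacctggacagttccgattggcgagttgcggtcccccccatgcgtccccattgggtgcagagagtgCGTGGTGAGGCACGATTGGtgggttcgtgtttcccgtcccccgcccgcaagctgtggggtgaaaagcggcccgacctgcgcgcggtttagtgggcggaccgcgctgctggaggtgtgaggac
Hsph1: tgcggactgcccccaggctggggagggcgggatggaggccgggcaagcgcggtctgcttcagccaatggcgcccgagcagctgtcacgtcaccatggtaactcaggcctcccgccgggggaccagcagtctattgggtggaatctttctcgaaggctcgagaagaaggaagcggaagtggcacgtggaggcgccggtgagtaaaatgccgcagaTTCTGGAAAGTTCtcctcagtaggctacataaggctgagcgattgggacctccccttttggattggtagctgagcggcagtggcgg
Cct4: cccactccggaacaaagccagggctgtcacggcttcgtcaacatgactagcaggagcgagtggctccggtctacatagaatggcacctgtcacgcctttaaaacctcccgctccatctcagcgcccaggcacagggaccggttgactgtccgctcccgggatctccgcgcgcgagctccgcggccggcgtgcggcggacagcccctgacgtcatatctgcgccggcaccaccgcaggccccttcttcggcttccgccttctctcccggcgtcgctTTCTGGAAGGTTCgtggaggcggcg
Hspd1: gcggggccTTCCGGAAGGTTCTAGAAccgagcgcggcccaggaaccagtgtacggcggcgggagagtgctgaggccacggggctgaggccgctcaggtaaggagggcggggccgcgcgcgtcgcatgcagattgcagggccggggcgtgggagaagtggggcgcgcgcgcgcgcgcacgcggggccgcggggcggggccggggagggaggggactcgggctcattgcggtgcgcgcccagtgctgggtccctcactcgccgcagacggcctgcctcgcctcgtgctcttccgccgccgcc
The windows lie at chr3:38452766-38453065 (plus strand, Hspa5), chr7:23012244-23012543 (minus strand, Hsp90b1), chr12:10427118-10427417 (plus strand, Hsph1), chr14:101192807-101193106 (plus strand, Cct4) and chr9:64083988-64084287 (minus strand, Hspd1). The Hspa5 element begins 43 bases before the start, and Hsp90b1 carries a pair of elements in opposite orientations. Hspd1 and Hspe1, which encode the mitochondrial chaperonin and its lid, are divergent neighbours: their windows share 211 bases, and the heat shock element of each is the same stretch of DNA read from opposite strands. In Hspd1 the capitals span overlapping matches. The shorter element of 2 units (GAANNTTC or TTCNNGAA, each its own reverse complement), which every element of 3 units contains, occurred in 15.9% of all windows, in 11 of 29 cytosolic promoters and in 0 of 19 ER ones. The unfolded protein response element TGACGTGG (both strands) was found in 0.595% of all windows and in those of Dnajc10, Hyou1 and Dnajb3, and the composite site of CHOP and ATF4, TGATGNAAT (both strands), in 1.09% of all windows and in 0 member windows. These matches are letters in a window, and binding was not measured.

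Across the 71 members, levels after high salt tended to lie above those after low salt, but no single member reached the threshold. Of the members 57 had a higher mean after high salt and 14 a lower one (80.3% higher, against 60.0% of all genes), and the median difference was 0.28 log2 units for the members and 0.07 for all genes. The adjusted p of limma, Benjamini-Hochberg over all probe sets, was below 0.05 for 0 members and for 0 genes (0% of 10411), with a lowest value of 0.803 among members and 0.54 over all probe sets. At an unadjusted p below 0.05, 4 members were higher (5.63%, against 5.72% of all genes) and 1 was lower (1 of 71, against 0.711% of all genes). The 3 high salt arrays all lay above the 3 low salt arrays for 11 members (15.5%, against 8.64% of all genes) and all below for 0 members (against 3.32%). The share at unadjusted p below 0.05 was near that of all genes, and the shares of members that were higher or did not overlap lay above those of all genes.

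The probe sets of the members gave more signal than most, and probe sets of high signal were more often higher after high salt. As signal, not amount of RNA, the median was 9.88 over members and 8.62 over all genes. In the brightest quintile of all genes 78.0% were higher after high salt, 6.96% at unadjusted p below 0.05, and the diets did not overlap for 10.6%. The 32 members in that quintile were higher in 28 cases (87.5%), at unadjusted p below 0.05 in 1 and without overlap in 5 (15.6%). Their median difference was 0.38, against 0.26 for all genes of that brightness. Of the 18 cytosolic members there 14 were higher (77.8%, near the 78.0% of all genes), and of the 9 ER members 9.

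**Figure D1:**
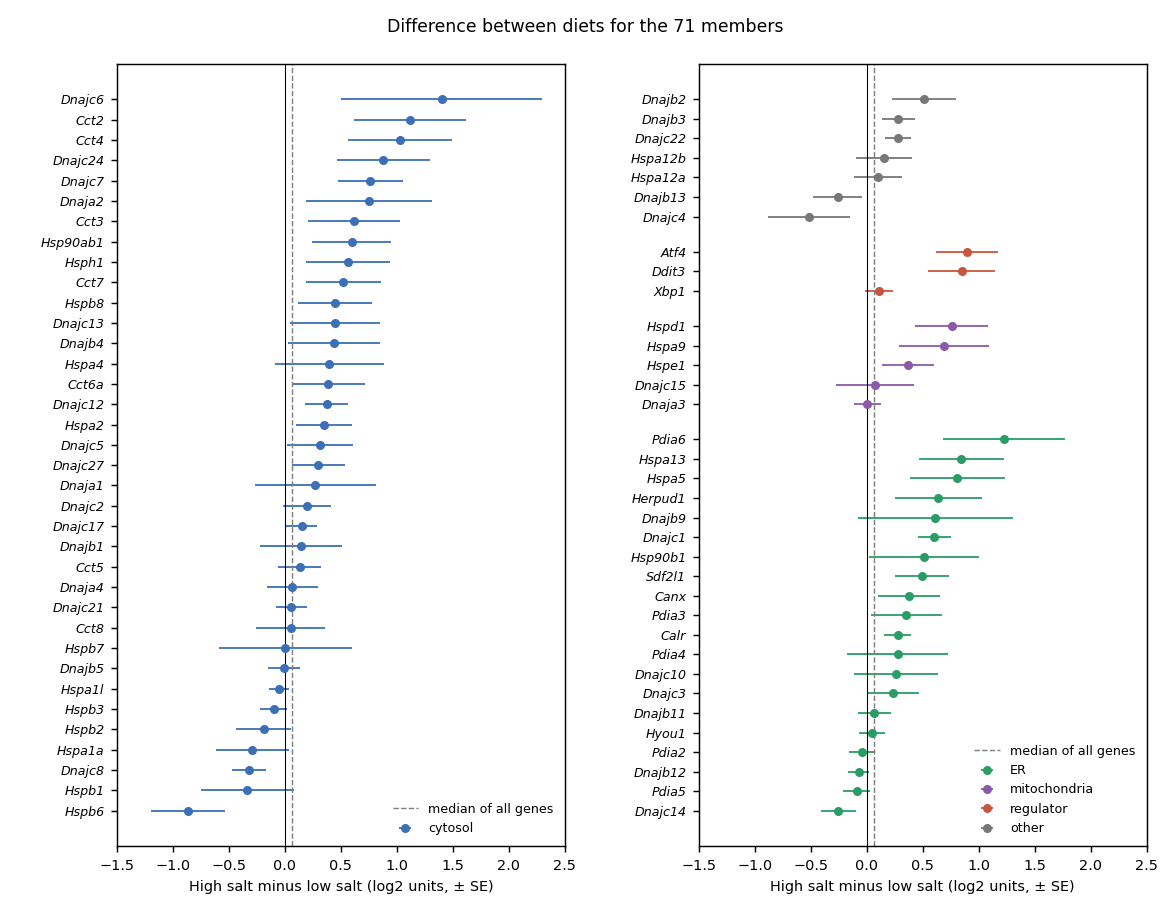
Difference in log2 level (high salt minus low salt) for each of the 71 members, grouped by compartment and ordered by size. Points are the limma estimates, bars are ± 1 SE, and the dashed line marks the median of all genes (0.07). Most members lie to the right of the line, from Dnajc6 (1.40) and Pdia6 (1.23) at the top to Hspb6 (-0.86) at the bottom, and many bars reach 0.

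Among the regulators, Atf4 and Ddit3 were higher on each high salt array than on any low salt array, and Xbp1 was not. Atf4, the transcription factor translated when initiation factor eIF2 is phosphorylated, stood at 10.00, 10.67 and 11.06 on the low salt arrays and at 11.53, 11.33 and 11.55 on the high salt arrays. The difference was 0.90 ± 0.27 (SE, n = 3 per diet), a fold of 1.86 (limma, unadjusted p = 0.0179, adjusted p = 0.803), and 0.61 without low salt pool 1. Ddit3, which encodes CHOP, a factor of the late ER stress response, stood at 7.92, 8.14 and 8.98 after low salt and at 9.41, 9.17 and 9.00 after high salt. The lowest high salt array exceeded the highest low salt array by little. The difference was 0.85 ± 0.30 (limma, unadjusted p = 0.0301, adjusted p = 0.803) and 0.63 without low salt pool 1. Xbp1, whose messenger is spliced by the sensor IRE1 into the active form, stood at 10.95, 11.06 and 11.29 after low salt and at 11.22, 11.12 and 11.29 after high salt. Its values overlapped (0.11 ± 0.12, and 0.03 without low salt pool 1), and the difference turned to -0.02 with arrays centred on their medians and to -0.11 after quantile normalization. Splicing of Xbp1 and phosphorylation of eIF2 were not measured.

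The ER chaperones were higher after high salt for 16 of 20 members, by a median of 0.31 (80.0%, against 60.0% of all genes). The diets did not overlap for 4 of 20 (20.0%, against 8.64% of all genes), and 1 of 20 was higher at unadjusted p below 0.05 (5.0%, against 5.72%). Of the lumenal Hsp70 and Hsp90 proteins 4 of 4 were higher, with a median of 0.66, although Hyou1 turned lower under both rescalings of the arrays. Without low salt pool 1 their median was 0.19 and 3 of 4 were higher. Hspa5, the Hsp70 protein of the ER that also restrains the stress sensors, stood at 10.02, 11.75 and 11.05 after low salt and at 11.61, 11.80 and 11.84 after high salt. Low salt pool 2 lay as high as the high salt arrays, pool 1 far below them, and the difference was 0.81 ± 0.43. It was 0.35 without pool 1. Hsp90b1, the Hsp90 protein of the ER (GRP94), stood at 9.97, 11.78 and 11.11 after low salt and at 11.27, 11.16 and 11.96 after high salt. The diets overlapped (0.51 ± 0.49), and without pool 1 the difference was 0.02. Hspa13, a small Hsp70-like protein of microsomes, stood at 8.69, 10.17 and 9.83 after low salt and at 10.40, 10.36 and 10.45 after high salt. Here the high salt arrays nearly coincided and lay above every low salt array (0.85 ± 0.38, and 0.41 without pool 1). Hyou1, a large Hsp70 relative that exchanges nucleotide on BiP, stood at 8.98, 9.11 and 9.26 after low salt and at 9.30, 9.10 and 9.08 after high salt (0.05 ± 0.12, and -0.02 without pool 1).

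The lectins Calr and Canx hold newly made glycoproteins until they fold. Calr stood at 11.27, 11.59 and 11.45 after low salt and at 11.60, 11.80 and 11.74 after high salt. The diets did not overlap, by a narrow margin, and the difference of 0.28 ± 0.12 shrank to 0.07 after quantile normalization. Canx stood at 11.04, 12.09 and 11.41 after low salt and at 11.70, 12.04 and 11.93 after high salt (0.38 ± 0.28, and 0.14 without low salt pool 1), with low salt pool 2 the highest of the 6.

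The protein disulfide isomerases, which form and shuffle disulfide bonds, were higher for 3 of 5 members, with a median of 0.27 and of 0.02 without low salt pool 1. Pdia6, which also acts on the sensor IRE1, stood at 9.59, 11.81 and 10.88 after low salt and at 11.85, 11.96 and 12.15 after high salt. It had the largest difference of any ER member, 1.23 ± 0.54 or 2.34-fold, and its lowest high salt array was just above its highest low salt array. Without low salt pool 1 the difference was 0.64. Pdia3, the isomerase that works with the lectins, stood at 10.81, 11.99 and 11.53 after low salt and at 11.60, 11.73 and 12.06 after high salt (0.35 ± 0.32, and 0.04 without pool 1). Pdia4 stood at 8.53, 9.66 and 9.75 after low salt and at 9.67, 8.90 and 10.18 after high salt (0.27 ± 0.45). Both overlapped widely, and the difference of Pdia4 was -0.12 without low salt pool 1.

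Among ER J proteins and their partners 6 of 8 were higher, with a median of 0.25, and without low salt pool 1 it was 4 of 8, with a median of 0.01. Dnajc1, a membrane J protein that binds ribosomes and BiP, gave the lowest unadjusted p of all members. It stood at 7.88, 7.97 and 8.14 after low salt and at 8.81, 8.62 and 8.37 after high salt, a difference of 0.60 ± 0.15 (limma, unadjusted p = 0.00644, adjusted p = 0.803). The diets did not overlap, and the difference was between 0.50 and 0.72 whichever array was left out. A dimmer probe set of the same gene, at a mean of 6.74, differed by -0.09 ± 0.09. Sdf2l1, a partner of the ER J proteins, stood at 9.35, 9.69 and 9.88 after low salt and at 10.01, 10.58 and 9.81 after high salt (0.49 ± 0.24), overlapping through a single array of each diet. Dnajb9, which returns IRE1 to its inactive complex with BiP, stood at 7.85, 10.63 and 9.88 after low salt and at 10.08, 9.96 and 10.15 after high salt. Low salt pool 1 lay far below the rest, and the difference of 0.61 ± 0.69 was -0.19 without it. Dnajb11, a secreted J protein, stood at 10.20, 10.46 and 10.03 after low salt and at 10.30, 10.17 and 10.42 after high salt (0.07 ± 0.14). Herpud1, a membrane organiser of ER-associated degradation, stood at 9.84, 11.28 and 11.11 after low salt and at 11.50, 11.26 and 11.39 after high salt. It overlapped by a small amount (0.64 ± 0.39) and was 0.19 higher without low salt pool 1.

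**Figure D2:**
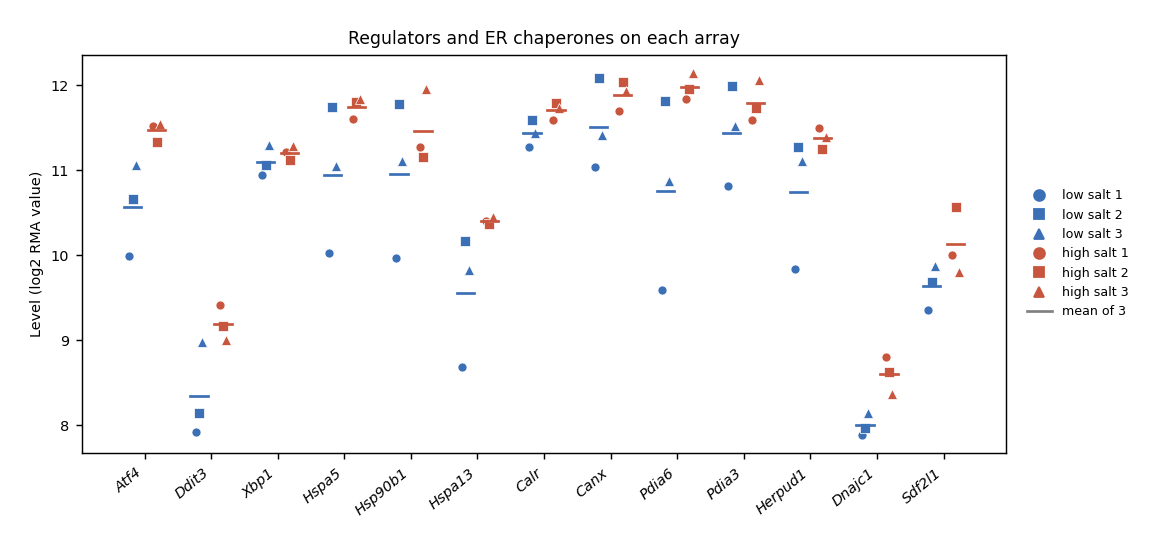
Level (log2 RMA value) of the 3 regulators and 10 ER members on each array. Blue marks low salt, red high salt, the symbol shape gives the pool number and the bars are means of 3 arrays. Low salt pool 1 (blue circle) is the lowest point for each gene shown, the high salt points of Atf4, Ddit3, Hspa13, Calr, Pdia6 and Dnajc1 all lie above the blue ones, and Xbp1 shows no gap.

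The cytosolic members were higher after high salt for 28 of 36, by a median of 0.31 (77.8%, against 60.0% of all genes). For those in the brightest quintile the share was also 77.8%, against 78.0% of all genes there. The high salt arrays all lay above the low salt arrays for 3 of 36 (8.33%, against 8.64% of all genes). At unadjusted p below 0.05, 1 was higher (2.78%, against 5.72%) and 1 lower (2.78%, against 0.711%). Of cytosolic Hsp90 proteins 1 had a probe set of its own. A brighter probe set shared by Hsp90aa1 and Hsp90aa1-ps17 was higher without overlap (0.34 ± 0.13), and a dimmer one overlapped (0.38 ± 0.31). The probe sets shared by Hspa8 and Haus8l2 and by Hspa1b and Hspa1a differed by 0.07 ± 0.15 and -0.08 ± 0.34, with overlap. Hsp90ab1, the constitutive form, stood at 9.66, 11.01 and 10.42 after low salt and at 10.96, 10.68 and 11.22 after high salt (0.60 ± 0.36, and 0.24 without low salt pool 1). Hsph1, an Hsp110 protein that exchanges nucleotide on Hsp70 and is strongly induced by heat, stood at 10.18, 11.33 and 11.30 after low salt and at 11.57, 11.05 and 11.87 after high salt (0.56 ± 0.38, and 0.18 without pool 1). Both overlapped between diets. Hspa1a, the classic stress-induced Hsp70, stood at 10.12, 10.51 and 11.30 after low salt and at 10.52, 10.02 and 10.51 after high salt. It was lower by 0.29 on average (-0.29 ± 0.33), with overlap, and since its near-identical copy Hspa1b can bind the same probes its level is uncertain. Hspa4, another Hsp110 protein, differed by 0.40 ± 0.49, and by -0.04 without pool 1.

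Of the chaperonin subunits 7 of 7 were higher after high salt, by a median of 0.52, and low salt pool 1 gave the lowest value for 7 of 7. With arrays centred on their medians 6 of 7 were higher, and after quantile normalization 5 of 7, Cct8 and Cct5 being the ones that turned. Cct2 stood at 8.88, 10.92 and 10.00 after low salt and at 10.92, 11.03 and 11.22 after high salt, a difference of 1.12 ± 0.50 or 2.17-fold, and 0.59 without low salt pool 1. Cct4 stood at 10.00, 11.89 and 10.97 after low salt and at 12.05, 11.82 and 12.07 after high salt, a difference of 1.02 ± 0.46, and 0.55 without pool 1. In both, low salt pool 2 lay close to or among the high salt arrays and pools 1 and 3 below them, and for Cct2 the diets only just did not overlap. Cct3 (0.61 ± 0.41), Cct7 (0.52 ± 0.34), Cct6a (0.39 ± 0.32), Cct5 (0.13 ± 0.19) and Cct8 (0.05 ± 0.31) overlapped between diets, and Cct5 stood at 11.08, 11.72 and 11.56 after low salt and at 11.59, 11.42 and 11.73 after high salt. The mean of the 7 subunits was 9.57 on low salt pool 1 and 11.0, 10.5, 10.9, 10.8 and 11.0 on the other arrays in order. Without pool 1 the median difference was 0.14 and 5 of 7 were higher.

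Cytosolic J proteins were higher for 15 of 17, with a median of 0.30, and without low salt pool 1 for 12 of 17, with a median of 0.07. Dnajc7, which bridges Hsp70 and Hsp90, stood at 8.39, 9.35 and 9.06 after low salt and at 10.04, 9.67 and 9.38 after high salt. It did not overlap between diets (0.76 ± 0.29, limma, unadjusted p = 0.0417, adjusted p = 0.803) and differed by 0.49 without low salt pool 1. Dnajc24, a J protein of diphthamide synthesis, stood at 6.75, 7.94 and 8.27 after low salt and at 8.88, 8.36 and 8.35 after high salt (0.88 ± 0.42, and 0.43 without pool 1). A dimmer probe set of it differed by -0.03 ± 0.11. Dnaja1 and Dnajb1 are the main J proteins of cytosolic Hsp70 and both are heat shock genes. Dnaja1 stood at 9.37, 11.58 and 10.66 after low salt and at 10.64, 10.77 and 11.02 after high salt. Dnajb1 stood at 10.20, 11.40 and 11.49 after low salt and at 11.32, 10.92 and 11.28 after high salt. Both overlapped fully (0.27 ± 0.54 and 0.14 ± 0.37) and were lower without low salt pool 1 (-0.31 and -0.27).

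Dnajc6 (auxilin), which strips clathrin from vesicles and is known from neurons, had the largest difference of any member. It stood at 7.82, 10.91 and 7.54 after low salt and at 10.06, 10.33 and 10.08 after high salt (1.40 ± 0.90). Low salt pools 1 and 3 were low, and pool 2 was the highest of all. The difference was 0.93, 2.48 and 0.79 without low salt pools 1, 2 and 3 in turn. The mean of 10 astrocyte markers was 9.31, 10.5 and 8.67 on the low salt arrays and 10.6, 10.2 and 10.3 on the high salt arrays, with 9 of 10 markers higher after high salt. Oligodendrocyte markers had means of 8.38, 8.99 and 8.11 and of 8.76, 8.97 and 9.08. Low salt pools 1 and 3 were low in both lists. The mean of neuronal markers was 7.08, 7.32 and 7.06 after low salt and 7.18, 7.05 and 7.04 after high salt, with 3 of 7 higher and a median difference of -0.09. This mean was highest on low salt pool 2, as was Dnajc6, but only 2 of the 7 neuronal markers were highest there, as many as on low salt pool 1. On the other arrays the means of the diets overlapped. The part of these cells in the Dnajc6 result was not tested. A second, dimmer probe set of Dnajc6 differed by 0.19 ± 0.46.

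Of 6 small heat shock proteins 2 were higher after high salt (1 of 6 under both rescalings of the arrays), and their median difference was -0.14, below 0 where those of the other families were above it. It was -0.03 without low salt pool 1, and that of the 5 cytosolic Hsp70 and Hsp110 proteins -0.02. Hspb6, which is phosphorylated when smooth muscle relaxes, was the only member lower at unadjusted p below 0.05. It stood at 11.63, 10.38 and 11.37 after low salt and at 10.16, 10.41 and 10.21 after high salt (-0.86 ± 0.33, limma, unadjusted p = 0.041, adjusted p = 0.803). Low salt pools 1 and 3 lay well above every high salt array, and pool 2 lay among them. The difference was -1.24 without low salt pool 2 and -0.61 without low salt pool 1. Hspb1, an actin-binding chaperone, stood at 12.84, 11.63 and 12.95 after low salt and at 12.55, 11.68 and 12.17 after high salt (-0.34 ± 0.41, and -0.15 without low salt pool 1). Hspb7, a filamin-binding protein of muscle, stood at 10.45, 8.26 and 9.68 after low salt and at 10.10, 9.13 and 9.18 after high salt (0.00 ± 0.60, and 0.50 without low salt pool 1). In both, low salt pool 2 was the lowest of the 6 arrays. Hspb2 and Hspb3, which form a complex in muscle, differed by -0.19 ± 0.25 and -0.10 ± 0.12. Hspb8, which works with the co-chaperone Bag3 in removing damaged filament proteins, stood at 7.73, 8.99 and 8.46 after low salt and at 8.72, 8.72 and 9.09 after high salt (0.45 ± 0.33), with low salt pool 1 the lowest, and the difference was 0.12 without it.

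Over the low salt arrays the smooth muscle markers ran as Hspb1, Hspb2, Hspb6 and Hspb7 did. Hspb8 ran otherwise, lowest on low salt pool 1, and Hspb3 (6.66, 6.37 and 6.38 after low salt) was high on pool 1 only. The mean of the 8 markers was 12.0, 11.1 and 12.0 on the low salt arrays and 11.5, 11.4 and 11.3 on the high salt arrays. Low salt pools 1 and 3 were again the high ones and pool 2 the low one. Of the 8 markers 0 were higher on the 8% NaCl diet, their median difference was -0.15 with a range from -0.74 to -0.06, and their part in the Hspb6 result was not tested. Cryab, a small heat shock protein that the naming rule did not take, stood at 12.08, 10.77 and 11.88 after low salt and at 10.96, 10.86 and 10.96 after high salt (-0.65 ± 0.35).

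**Figure D3:**
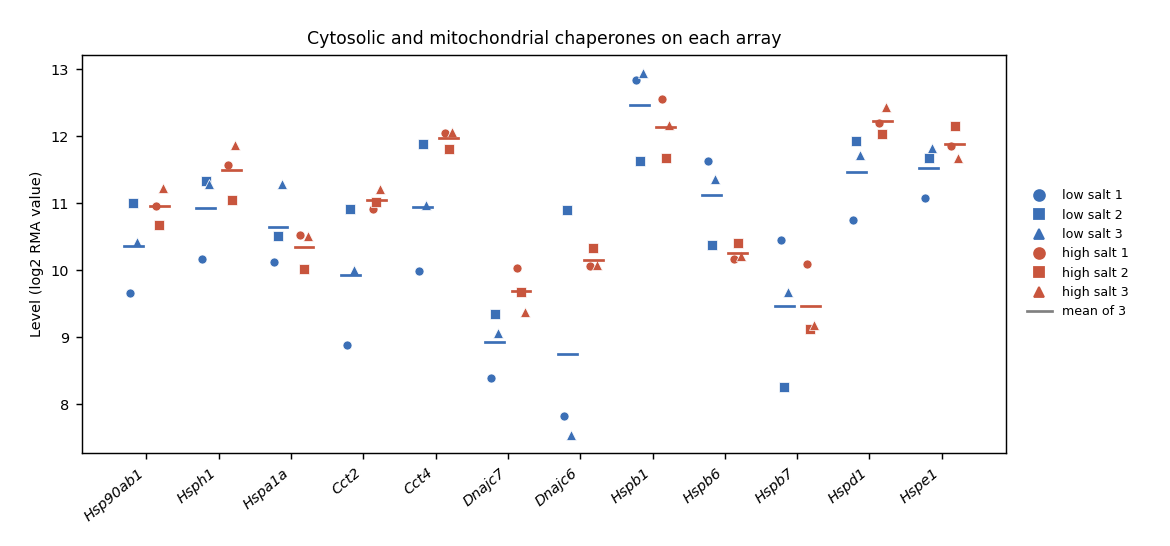
Level (log2 RMA value) of 10 cytosolic members and of the mitochondrial Hspd1 and Hspe1 on each array, drawn as in the plot of regulators and ER chaperones. Cct2, Dnajc7 and Hspd1 have every high salt point above every low salt point, Hspb6 has low salt pools 1 and 3 above the high salt points, and low salt pool 2 (blue square) is the highest of the 6 for Dnajc6 and the lowest for Hspb1 and Hspb7.

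In mitochondria 5 of 5 members were higher, with a median of 0.37, and 3 of 5 under both rescalings. Without low salt pool 1 the median was 0.16 and 5 of 5 were higher. Hspd1, the chaperonin Hsp60, stood at 10.75, 11.94 and 11.72 after low salt and at 12.20, 12.04 and 12.44 after high salt. The diets did not overlap (0.76 ± 0.33, 1.69-fold) and the difference was 0.40 without low salt pool 1. Hspe1, its lid Hsp10, which shares the promoter region shown above, stood at 11.08, 11.68 and 11.82 after low salt and at 11.86, 12.15 and 11.68 after high salt (0.37 ± 0.23), overlapping through high salt pool 3, and the difference was 0.14 without low salt pool 1. Hspa9, the mitochondrial Hsp70, stood at 8.79, 10.10 and 9.79 after low salt and at 10.14, 9.84 and 10.76 after high salt (0.69 ± 0.40, and 0.30 without pool 1). Its probe sets disagree: a dimmer one, at 7.08, was lower on each high salt array than on any low salt array (-0.21 ± 0.09), and another differed by 0.19 ± 0.37. Dnajc15 and Dnaja3, both linked to the import or folding machinery of the matrix, overlapped between diets. Dnajc15 stood at 9.31, 8.64 and 9.47 after low salt and at 9.02, 9.83 and 8.79 after high salt (0.07 ± 0.35). Dnaja3 stood at 7.51, 7.27 and 7.50 after low salt and at 7.44, 7.30 and 7.57 after high salt (0.01 ± 0.12).

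Of the 7 members assigned to no compartment 5 were higher. Dnajc22, a membrane J protein, was dim but did not overlap between diets, at 6.37, 6.43 and 6.34 after low salt and at 6.47, 6.79 and 6.71 after high salt (0.28 ± 0.11). Dnajb2, a J protein that delivers clients to the proteasome, stood at 9.99, 10.76 and 10.78 after low salt and at 11.40, 10.75 and 10.90 after high salt (0.51 ± 0.28, and 0.25 without low salt pool 1). Dnajc4 stood at 9.73, 8.24 and 9.08 after low salt and at 8.47, 8.58 and 8.47 after high salt (-0.51 ± 0.37, and -0.16 without pool 1), with low salt pool 1 high and pool 2 low. Dnajb13, an axonemal J protein, ran in the same way, at 7.63, 6.86 and 7.48 after low salt and at 7.03, 7.20 and 6.95 after high salt (-0.26 ± 0.22, and -0.11 without pool 1). Dnajb3 was dim, at 5.27, 5.42 and 5.15 after low salt and at 5.77, 5.35 and 5.56 after high salt (0.28 ± 0.15). The distant Hsp70 relative Hspa12a overlapped between diets, at 8.33, 9.13 and 8.89 after low salt and at 8.90, 8.78 and 8.97 after high salt (0.10 ± 0.22), and turned lower under both rescalings. Where a member had further probe sets they often failed to repeat its sign. There were 19 such members, with 21 other probe sets. Of these 12 had the sign of the brightest one and 9 the opposite sign. Those opposite lay below 7.52, the 40th percentile of level, except for Dnajb1 (8.66) and Pdia3 (8.80). Those of Dnajb5, Dnajc17, Dnajc5 and Hspb8 also lay below it and had the same sign.

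**Figure D4:**
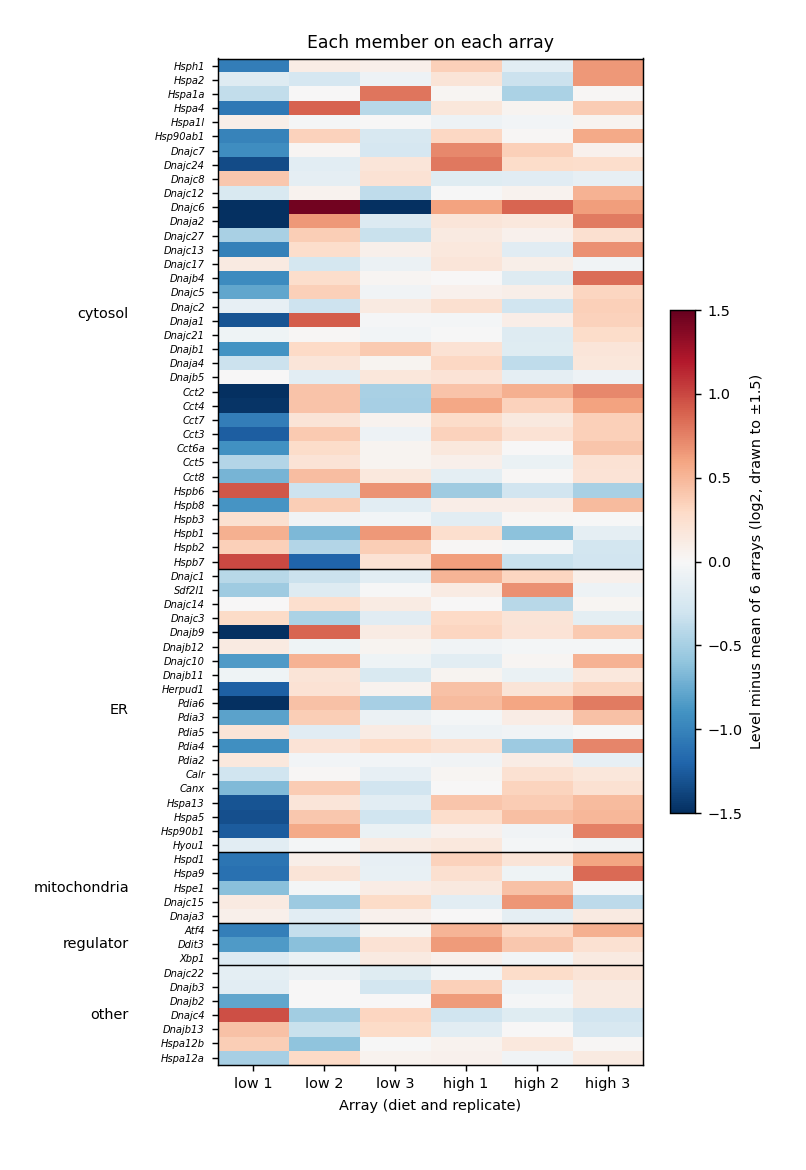
Level of each of the 71 members on each array minus the gene's mean over the 6 arrays (log2 units, colours drawn to ±1.5), grouped by compartment. The column of low salt pool 1 is blue for most cytosolic, ER and mitochondrial members and red for Hspb6 and Hspb7, and the 3 high salt columns are mostly pale red.

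The cytosolic and ER branches did not separate. The median difference was 0.31 in each, 0.01 apart, and the shares of higher members were 28 of 36 and 16 of 20. The mean level of ER members minus that of cytosolic members was 0.08, 0.19 and 0.11 on the low salt arrays and 0.12, 0.30 and 0.14 on the high salt arrays, so that the diets overlapped. ER members with an ER stress element differed by 0.24 (Dnajc3, ± 0.23) to 0.81 (Hspa5), within a range of -0.26 to 1.23 over all ER members. Cytosolic members with a heat shock element of 3 units differed by 0.27 (Dnaja1) to 1.02 (Cct4), within a range of -0.86 to 1.40.

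The size of these differences depended on low salt pool 1. It was the lowest of the 6 arrays for 14 of 20 ER members, 20 of 36 cytosolic ones and 26 of the 32 members in the brightest quintile, against 1310 of the 2082 genes there. Without it, the median difference was 0.04 for ER members, 0.06 for cytosolic members and 0.12 for all members. It was 0.05 for all genes and 0.08 for the brightest quintile. Higher were 13 of 20 ER members (65.0%), 22 of 36 cytosolic ones (61.1%) and 47 of 71 members (66.2%). The shares were 61.5% of all genes and 63.8% of the brightest quintile. Without low salt pool 2, in which many members were as high as after high salt, the medians were 0.55 and 0.53 for the ER and cytosol, 18 members were higher at unadjusted p below 0.05 (against 15.3% of all genes) and the lowest adjusted p of a member was 0.0501. Of the regulators, Atf4 differed by 0.61 without low salt pool 1 against 0.90 with it, and Ddit3 by 0.63 against 0.85. Xbp1 fell from 0.11 to 0.03. Rescaling mattered as well. With each array centred on its median, which lowers the median of all genes from 0.07 to -0.06, 47 of 71 members were higher (66.2%, against 42.8% of all genes), and after quantile normalization 45 of 71 (63.4%, against 46.3%).

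**Figure D5:**
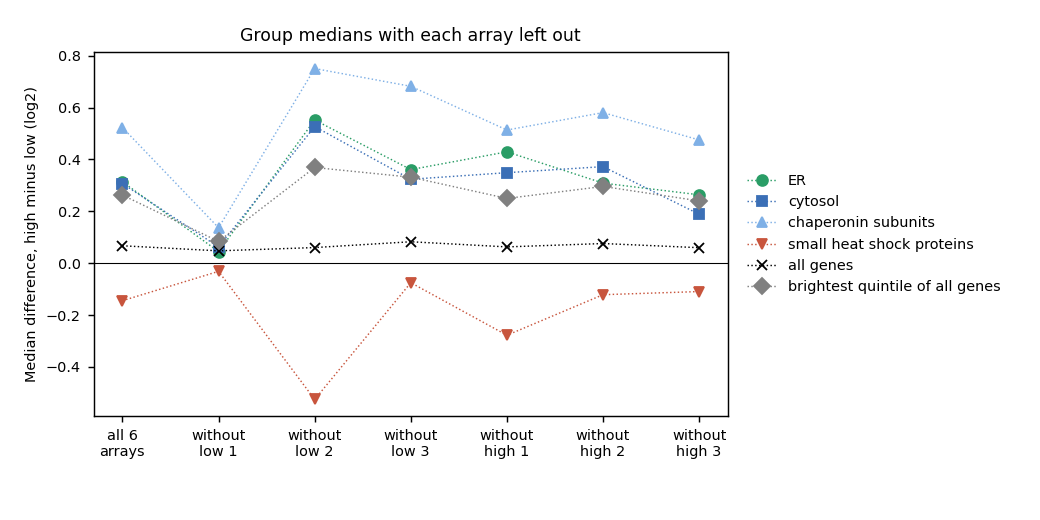
Median log2 difference between diets (high salt minus low salt) of ER members, cytosolic members, chaperonin subunits, small heat shock proteins, all genes and the brightest quintile of all genes, with all 6 arrays and with each array left out in turn. Leaving out low salt pool 1 brings the ER and cytosolic medians to 0.04 and 0.06, next to all genes (0.05), and leaving out low salt pool 2 raises them to 0.55 and 0.53 and lowers the small heat shock proteins to -0.53.

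Markers of other cells were mostly higher after high salt in the lists that follow, but the lists differed in which low salt array was lowest. Of 6 macrophage and microglia markers 5 were higher after high salt, with means of 8.27, 8.97 and 9.12 on the low salt arrays and 9.10, 9.41 and 9.43 on the high salt arrays. For red blood cells 2 of 3 markers were measured, and both were higher, with means of 11.2, 11.8 and 11.7 after low salt and 12.5, 12.0 and 12.9 after high salt. Plasma cells, which are rich in ER chaperones, had 1 of 4 listed markers measured, Sdc1, at 8.39, 8.48 and 8.79 after low salt and 9.45, 8.52 and 9.34 after high salt. Low salt pool 1 had the lowest mean of these 3 lists. Of the 4 oligodendrocyte markers, whose means are given beside Dnajc6, 3 were higher, with a median of 0.33, and low salt pool 3 had their lowest mean. Of the 5 endothelial markers 4 were higher, with a median of 0.21. Their means were 9.91, 9.68 and 10.06 after low salt and 10.19, 10.15 and 10.23 after high salt, so that low salt pool 2 had the lowest. The part of these cells in the chaperone levels was not tested.

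Further genes of the pathways, listed by function, were read beside the members. Of 50 genes of the unfolded protein response, ER translocation and ER-associated degradation 45 were measured. After high salt 37 were higher and 8 lower (82.2% higher, against 60.0% of all genes), with a median difference of 0.24. Their median level was 9.47, in the quintile of all genes next to the brightest, where 75.1% were higher. At unadjusted p below 0.05, 11 were higher (24.4%, against 5.72% of all genes and 9.32% of that quintile). By the same measure 1 was lower (against 0.711% of all genes), and 0 passed the adjusted threshold. Without low salt pool 1 the count was 9 (20.0%, against 3.68% of all genes), and it was 6 under both rescalings (13.3%, against 2.96% and 2.78%). Over all single arrays left out it ranged from 4 to 14. The 4 came without high salt pool 1 (8.89%, against 2.29% of all genes) and the 14 without low salt pool 2 (31.1%, against 15.3%). The 3 genes with the lowest p were Wfs1, Fkbp2 and Ppp1r15b. Wfs1, an ER membrane protein that limits ATF6 activity, stood at 11.13, 10.82 and 10.72 after low salt and at 10.44, 10.18 and 10.43 after high salt, lower without overlap (-0.54 ± 0.15, or -0.25 over the mean of its probe sets). Fkbp2, a prolyl isomerase of the ER, stood at 10.05, 10.25 and 10.81 after low salt and at 11.45, 11.67 and 10.94 after high salt (0.98 ± 0.27). Ppp1r15b, the constitutive partner of the phosphatase that acts on eIF2, stood at 8.20, 9.45 and 9.02 after low salt and at 9.97, 9.90 and 10.28 after high salt (1.16 ± 0.33). Fkbp2 and Ppp1r15b did not overlap between diets.

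Chosen after their values were seen, Sil1, the nucleotide exchange factor of BiP, was 0.76 ± 0.22 higher, P4hb, the archetypal disulfide isomerase that the symbol rule does not reach, 0.96 ± 0.36 higher and Manf, a secreted ER stress protein, 0.45 ± 0.15 higher, each without overlap. P4hb was 0.54 higher without low salt pool 1. Genes known as targets of ATF4 or CHOP, also chosen afterwards, lay on both sides of 0. Nupr1, a small stress-induced protein, stood at 12.19, 12.23 and 12.66 after low salt and at 12.84, 13.05 and 12.63 after high salt, higher with overlap (0.48 ± 0.18, limma, unadjusted p = 0.0379, adjusted p = 0.803). Atf3, a stress-induced transcription factor, stood at 9.71, 9.93 and 9.71 after low salt and at 9.55, 9.70 and 9.37 after high salt, lower without overlap (-0.25 ± 0.13). Trib3 differed by 0.07 ± 0.22, Asns by 0.05 ± 0.27, Ppp1r15a by 0.09 ± 0.18, Ero1a by 0.24 ± 0.26 and Chac1 by -0.32 ± 0.17, all with overlap. Trib3, Asns and Ppp1r15a turned negative under both rescalings.

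Of 24 heat shock factors and co-chaperones 22 were measured, and 16 were higher (72.7%, against 60.0% of all genes), with a median of 0.07. Their median level was 10.1. In the brightest quintile of all genes 78.0% were higher, and in the quintile next to it 75.1%. At unadjusted p below 0.05, 3 were higher (13.6%, against 5.72% of all genes, and 6.96% and 9.32% of those quintiles) and 0 lower (against 0.711%). With arrays centred on their medians 8 of 22 were higher, and 7 after quantile normalization. Without low salt pool 1 the 3 at unadjusted p below 0.05 became 0 (against 3.68% of all genes). Fkbp5, a co-chaperone of Hsp90 in steroid receptor complexes, stood at 9.65, 10.36 and 9.30 after low salt and at 10.96, 10.71 and 10.46 after high salt (0.94 ± 0.30). Bag1, a nucleotide exchange factor of Hsp70, differed by 0.57 ± 0.19 and Ppp5c, an Hsp90-bound phosphatase, by 0.30 ± 0.12, and none of the 3 overlapped between diets. Hsf1, the main heat shock factor, differed by 0.03 ± 0.21.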

How the data were processed

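RNA of 6 pools of cerebral arteries was amplified in 2 cycles before hybridisation to an Affymetrix rat array, per the labels' protocols. The deposited values are log2 levels per probe set that the authors made with RMA, per the submitters' processing notes, which name no version here. The base of 2 was read from the range of the values. Array medians ran from 7.96 to 8.17. From the 15923 rows 57 control probe sets were left out. The platform annotation gave 12783 probe sets 1 symbol, 312 several and 2771 none, and 12748 were matched by Entrez identifier to RefSeq names of GRCr8, with 0 symbols changed. A gene is its probe set of 1 symbol with the highest mean.

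Diets were compared with limma 3.58.1 in R 4.3.3 (lmFit and eBayes, 15866 probe sets, Benjamini-Hochberg over all, threshold 0.05), 3 arrays against 3. An exact permutation test of 3 against 3 arrays cannot go below a two-sided p of 0.1. The replicates are pools of different rats, whose spread holds biological and array error together, and the number of arrays limits the precision. The steps were tested on simulated data with 200 changed probe sets of 15866. At the adjusted threshold of 0.05, 39% of changes of 1 log2 unit and 80% of changes of 2 were recovered. Of the 177 calls at 2 units 17 were false. In this simulation a change of 1 unit was thus often missed, and smaller changes were not simulated. Noise was drawn independently for each probe set, without a departure of a whole array such as that of low salt pool 1. Recovery with such a departure was not tested.

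Members and lists were chosen with earlier results of these data known, and no p is given for a list. Values on every array are given for the 5 members of lowest p and the 3 of highest level in each compartment, for members at unadjusted p below 0.05, for the regulators and for a fixed set of well known chaperones. Of the pathway lists the 3 genes of lowest p are named. Hspa4, Cct3, Cct6a, Cct7, Cct8, Dnajc3, Dnajc6, Hspb2, Hspb3, Cryab, Hsf1, Sil1, P4hb, Manf, Trib3, Asns, Ppp1r15a, Chac1, Nupr1, Atf3 and Ero1a, where outside that rule, were named after their values were seen. Alternatives were median centring, quantile normalization, the replicate block, array weights, trended and robust variances, a filter at the 40th percentile of level, averaging the probe sets of a gene, adjustment over genes in place of probe sets, a threshold of 0.1 and leaving out each array.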

Additional observations from a re-analysis of the deposited data

How the results depend on the processing

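With limma, 0 members passed the adjusted threshold of 0.05 under any alternative run. The threshold of 0.1 was applied to the main fit only, where 0 members passed it. Without low salt pool 2 the adjusted p of limma was 0.0501 for Dnajc6 and 0.0758 for Hspb6, both below 0.1. The medians of the ER and cytosolic members stayed positive, while the ER median minus the cytosolic one was -0.010 with dim probe sets left out and ran from -0.064 to 0.080 over arrays left out. Members at unadjusted p below 0.05 and higher numbered 4 in the main setting (5.63%, against 5.72% of all genes). They numbered 11 with array weights (against 8.86% of all genes), 7 with trended and robust variances (against 4.5%) and 2 to 18 over arrays left out (against 2.29% to 15.3%). Those lower numbered 1 (against 0.711% of all genes), then 2 with array weights, 3 with median centring and 0 to 6 over arrays left out. The share of all genes that were lower is not given for the alternatives, so these later counts cannot be read alone. With the replicate block 4 members were higher (against 4.81% of all genes) and 0 lower. Same-numbered pools of the diets share only a number: their deviations correlated at 0.038, -0.27 and 0.044. Members without overlap and higher numbered 11 (15.5%, against 8.64% of all genes), then 4 with median centring and 13 to 30 over arrays left out. Those without overlap and lower numbered 0 (against 3.32% of all genes), then 6 with median centring, 2 after quantile normalization and 0 to 8 over arrays left out. Shares of all genes without overlap are not given for the alternatives. Non-overlap is easier to reach with an array left out, so these counts are not read as a result about the members.

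Of 74 named genes 52 kept their sign in all 10 alternatives that give a value. With median centring the difference turned for Asns (-0.084), Cct8 (-0.077), Dnaja3 (-0.12), Dnajb11 (-0.063), Dnajc15 (-0.056), Hsf1 (-0.097), Hspa12a (-0.031), Hspb7 (-0.13), Hyou1 (-0.085), Ppp1r15a (-0.044), Trib3 (-0.057) and Xbp1 (-0.023). After quantile normalization it turned for Asns (-0.19), Cct5 (-0.069), Cct8 (-0.067), Dnaja3 (-0.054), Dnajb1 (-0.067), Dnajb11 (-0.18), Dnajc15 (-0.16), Dnajc3 (-0.0026), Hsf1 (-0.097), Hspa12a (-0.067), Hspb7 (-0.26), Hyou1 (-0.17), Ppp1r15a (-0.11), Trib3 (-0.058) and Xbp1 (-0.11). With array weights it turned for Cct8 (-0.088), Dnaja3 (-0.020), Dnajb1 (-0.11), Dnajc15 (-0.11), Hsf1 (-0.0017), Hyou1 (-0.019) and Trib3 (-0.012), and with probe sets of a gene averaged for Dnajb1 (-0.018) and Hyou1 (-0.013).

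Over arrays left out the difference crossed 0 for Asns (-0.14 to 0.28), Cct5 (-0.055 to 0.26), Cct8 (-0.28 to 0.30), Dnaja1 (-0.31 to 0.80), Dnaja3 (-0.072 to 0.076), Dnajb1 (-0.27 to 0.37), Dnajb11 (-0.031 to 0.18), Dnajb9 (-0.19 to 1.20), Dnajc10 (-0.097 to 0.59), Dnajc15 (-0.24 to 0.29), Ero1a (-0.014 to 0.44), Hsf1 (-0.15 to 0.15), Hspa12a (-0.13 to 0.27), Hspa1a (-0.55 to 0.036), Hspa4 (-0.036 to 0.94), Hspb7 (-0.60 to 0.50), Hyou1 (-0.022 to 0.12), Pdia4 (-0.12 to 0.62), Ppp1r15a (-0.054 to 0.26) and Trib3 (-0.16 to 0.19). For each of these the cause was not tested. Nothing here reads protein, and dim probe sets limit what can be said of Dnajc22, Dnajb3 and other faint members.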
